A study of Homo sapiens with 16 samples.

Results

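The comparison described here asks how ribosome-protected fragments changed when tRNA-Ile-GAU was knocked down in cells that already overexpressed tRNA-Ile-UAU. Its members were chosen by their labels: 2 libraries from cells with CRISPRi against Ile GAT and a construct for Ile TAT, and 2 libraries from cells with CRISPRi against eGFP and the same construct. These are 4 of the 16 libraries of the series, which crossed 2 guide targets with 2 constructs and measured each condition by ribosome-protected fragments (RPF, called footprints here) and by total RNA. The cells were MDA-MB-231, an established human triple-negative breast cancer cell line, which the labels also call a xenograft cell line, grown in DMEM with serum and left untreated. Every library compared carried CRISPRi, a method that uses a guide RNA to hold a transcriptional repressor on its target, and every one carried the tRNA-Ile-UAU construct, so the eGFP group is not an unmodified line. The labels do not say whether the lines are clones or pools, or which guides were used. Nor do they say whether the 2 replicates of a group came from separate cultures. The p-values below therefore measure only the spread between libraries, estimated over all 8 libraries of an assay (all 16 for translational efficiency). In a bulk library, fewer cells of a type and less RNA per cell cannot be told apart.

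Isoleucine is read by several tRNAs. The most abundant of them carries inosine in its anticodon and reads mainly AUU and AUC, tRNA-Ile-GAU is a minor tRNA in human cells that pairs with AUC, and tRNA-Ile-UAU reads AUA. Footprints are what remains of mRNA after nuclease digestion where a ribosome covered it, so the footprints of a gene count ribosomes on its mRNA and depend on both how much mRNA there is and how densely it is translated. Dividing footprints by total RNA gives translational efficiency.

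Counts on genes ran from 358340 to 938909 in the 4 libraries, on 10974 to 11984 genes with a count, and the 2 eGFP libraries were the shallower ones in the comparison. Levels of the tRNAs themselves were not analysed here, so the knockdown was not checked. Of the genes that neighbour the 3 tRNA-Ile-GAU genes on chromosome X, PRKX was the 1 abundant enough to be tested, in total RNA, where its log2 difference was 0.37 ± 0.25 (adjusted p = 0.729, edgeR). The summed footprints of 8 basal and mesenchymal markers were 16866 to 17315 CPM (counts scaled to a common library total) with the eGFP guide. With the tRNA-Ile-GAU guide they were 17256 to 18276 CPM. Most of each sum was VIM, at 12743 to 14214 CPM over the 4 libraries. Of the basal keratins, KRT5 had 3.49 to 11.4 CPM, and KRT14 and KRT17 were at 0. The 8 luminal markers summed to 1104 to 1149 and 1089 to 1189 CPM, mostly KRT8, KRT18 and KRT19, with ESR1 at 0. Fibroblast markers summed to 19.2 to 28.6 and 25.6 to 27.8 CPM with COL3A1, DCN, LUM and FAP at 0, endothelial markers to 2.86 to 6.99 and 9.59 to 9.63 CPM with CDH5 at 0, and immune markers to 135 to 180.1 and 142 to 179 CPM, nearly all of it CD68, with PTPRC and CD3E at 0.

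With the tRNA-Ile-GAU guide more genes fell than rose. The 4 strongest calls by p were S100A4, ITGB4 and LAMB1, which fell, and ZNF10, which rose. Of 8143 genes tested, 73 passed (0.896%; edgeR's quasi-likelihood test, Benjamini-Hochberg adjusted p under 0.05), 16 of them higher (0.196%) and 57 lower (0.700%). At an unadjusted p under 0.05 there were 803 genes (9.86%). The median log2 fold change was 0.87 among the risen and -0.69 among the fallen genes, and 6 risen and 13 fallen genes changed more than 2-fold. In all 73 the 2 groups of libraries did not overlap, as was so for 19.1% of all tested genes in the higher and 19.5% in the lower direction. The count depended most on the eGFP libraries: 28 genes passed without eGFP replicate 1 and 19 without eGFP replicate 2, against 74 and 65 without tRNA-Ile-GAU replicate 1 or 2. DESeq2 called 26, all among the 73. Of the 41 genes named by the rule, 7 passed in every alternative that gave them an adjusted p: S100A4, ITGB4, ZNF10, CLDN4, GPRC5C, LAMB1 and ROR2.

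**Figure D1:**
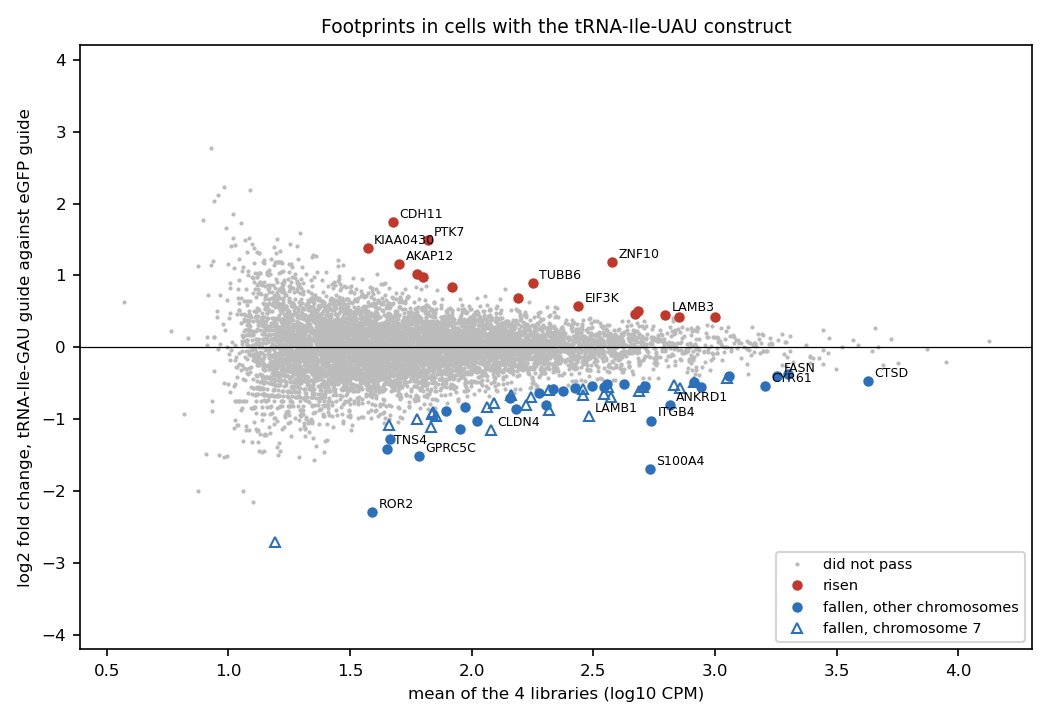
Each point is 1 of the 8143 tested genes, by its mean over the 4 libraries (log10 CPM) and its footprint log2 fold change, tRNA-Ile-GAU guide against eGFP guide; coloured points are the 16 risen and 57 fallen genes, and open triangles are the 27 fallen genes on chromosome 7. S100A4, ITGB4 and ROR2 lie below the cloud at their level, and ZNF10, PTK7 and CDH11 above it.

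S100A4, a small calcium-binding protein known for its part in cell motility and metastasis, had the lowest p of all. Its footprints were 912 and 744 CPM with the eGFP guide and 256 and 248 CPM with the tRNA-Ile-GAU guide, a 3.29-fold lower mean (log2 fold change -1.70 ± 0.13, SE; adjusted p = 8.68e-24, edgeR). Both knockdown libraries lay far below both controls. The gene lies at chr1:153543621-153545806 (GRCh38.p14, as for all positions here), within the S100 gene cluster. Of the 8 S100 genes tested, S100A4 was the 1 that passed, where 0.896% of all genes did. The other members were lower by less, with a median over the 8 of -0.18. S100A6, the most abundant of them, had footprints of 9712 and 9325 CPM and then 8464 and 8046 CPM (log2 fold change -0.20 ± 0.09, adjusted p = 0.421).

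The receptors and surface proteins that fell include the largest change in the named set. ROR2, a receptor tyrosine kinase for Wnt5a in noncanonical Wnt signalling (chr9:91722601-91950228), had 65.7 and 62.9 CPM with the eGFP guide and 8.56 and 19.2 CPM with the tRNA-Ile-GAU guide. The log2 fold change was -2.30 ± 0.37 (adjusted p = 6.07e-06), a 4.64-fold lower mean, and the knockdown libraries differed from each other by more than the controls did. In total RNA, ROR2 had 0 counts in all 8 libraries, where 3 counts would be 0.551 to 1.19 CPM, so its footprints had no measurable mRNA beside them. Whether these footprint reads come from ROR2 mRNA was not tested. GPRC5C, an orphan G protein-coupled receptor, had 94.3 and 87.3 CPM and then 34.3 and 27.2 CPM (log2 fold change -1.52 ± 0.26, adjusted p = 4.23e-05). CLDN4, a tight junction claudin on chromosome 7, had 177 and 154 CPM and then 67.4 and 81.5 CPM (-1.15 ± 0.20, adjusted p = 3.93e-05). In each of these 3 genes every knockdown library lay under every control library by a wide gap.

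ITGB4, the integrin subunit that with integrin alpha 6 anchors epithelial cells to laminin in hemidesmosomes (chr17:75721459-75757818), had 757 and 711 CPM with the eGFP guide and 349 and 376 CPM with the tRNA-Ile-GAU guide. Its mean was 2.03-fold lower (log2 fold change -1.02 ± 0.12, adjusted p = 2.84e-10). None of the other 8 integrin genes tested passed, its partner ITGA6 among them (-0.03 ± 0.12, adjusted p = 0.964), and the median of the 9 was -0.05. TNS4, an adaptor of focal adhesions, had 80.03 and 52.4 CPM and then 23.6 and 23.97 CPM (-1.41 ± 0.31, adjusted p = 0.004). The controls of TNS4 spread widely, and its knockdown libraries nearly coincide. GPC1, a heparan sulfate proteoglycan held at the membrane by a lipid anchor, had 74.3 and 57.6 CPM and then 24.6 and 28.8 CPM (-1.28 ± 0.30, adjusted p = 0.00944). FZD1, a Wnt receptor on chromosome 7, had 85.7 and 103 CPM and then 51.4 and 46.3 CPM (-0.96 ± 0.24, adjusted p = 0.017). L1CAM, a neural adhesion molecule, and the Wnt co-receptor LRP5 fell by less, with log2 fold changes of -0.86 ± 0.18 (adjusted p = 0.00134) and -0.56 ± 0.15 (adjusted p = 0.0293). TNS4, GPC1 and LRP5 did not pass without eGFP replicate 1 (adjusted p of 0.2 to 0.241). GPC1, FZD1, L1CAM and LRP5 did not pass without eGFP replicate 2 (adjusted p of 0.0892 to 0.53). TNS4, GPC1 and FZD1 did not pass without tRNA-Ile-GAU replicate 1 (adjusted p of 0.0506 to 0.13). FZD1, L1CAM and LRP5 did not pass without tRNA-Ile-GAU replicate 2 (adjusted p of 0.0786 to 0.354).

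**Figure D2:**
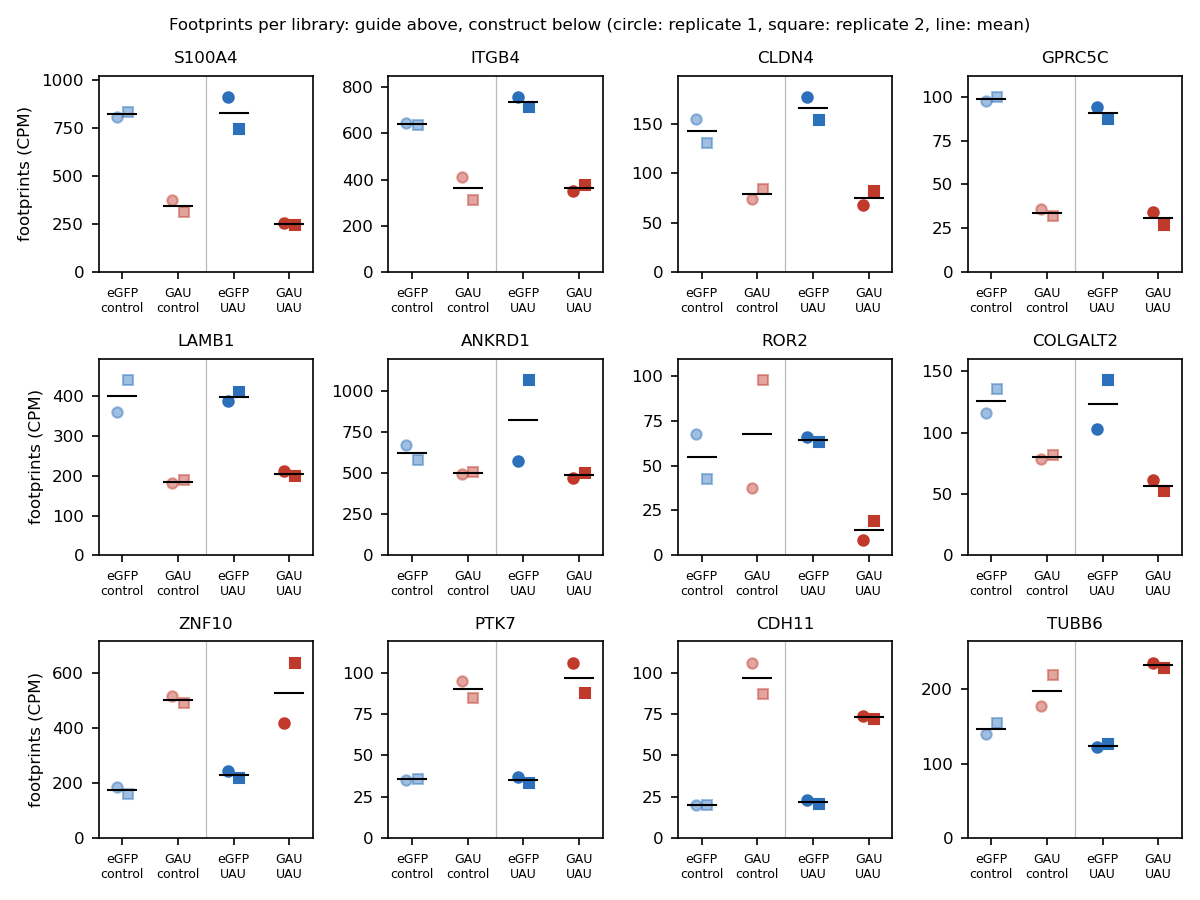
Footprints (CPM, linear axes from 0) of 12 genes in each of the 8 footprint libraries, by guide and construct; circles are replicate 1, squares replicate 2 and lines the mean of the 2. In the right-hand pair of each panel, the tRNA-Ile-UAU construct, the groups do not overlap in any of the 12 genes, as in all 73 called genes. ROR2 is the panel whose left-hand pair overlaps.

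Genes of the extracellular matrix moved in both directions. Of 34 tested, 4 fell and 1 rose (0.700% and 0.196% of all genes did), and the median of the list was -0.03, against 0.00 for all genes. The laminin chains split: LAMB1, the beta 1 chain of widespread basement membrane laminins on chromosome 7 (chr7:107923799-108003161), had 389 and 411 CPM and then 212 and 199.8 CPM (-0.96 ± 0.14, adjusted p = 6.1e-07). LAMA5, the alpha 5 chain, had 620.2 and 608 CPM and then 440.0 and 404 CPM (-0.53 ± 0.12, adjusted p = 0.00754). LAMB3, the beta 3 chain of laminin 332, to which the integrin with ITGB4 binds, went the other way, from 537 and 517 CPM to 679.7 and 765 CPM (0.45 ± 0.12, adjusted p = 0.033). COL6A1, a chain of type VI collagen, fell from 529 and 463 CPM to 334 and 358 CPM (-0.51 ± 0.13, adjusted p = 0.0235). In these 4 genes the higher group's lowest library lay clear of the other group. The most abundant matrix genes did not pass: THBS1 (thrombospondin 1) had 7023 and 7943 CPM and 7577 and 7111 CPM, with overlapping groups, and FN1 (fibronectin) a log2 difference of -0.13 ± 0.10. COLGALT2, which adds galactose to collagen hydroxylysines, had 103 and 143 CPM and then 61.02 and 52.7 CPM (-1.14 ± 0.22, adjusted p = 0.000362). PLOD3, a collagen lysyl hydroxylase on chromosome 7, and the peroxidase PXDN, which crosslinks collagen IV, were lower by -0.58 ± 0.14 (adjusted p = 0.0148) and -0.56 ± 0.14 (adjusted p = 0.0174) on the log2 scale. LAMA5, LAMB3, COL6A1, PLOD3 and PXDN did not pass without eGFP replicate 1 (adjusted p of 0.0538 to 0.516). LAMA5, LAMB3, COL6A1, COLGALT2 and PLOD3 did not pass without eGFP replicate 2 (adjusted p of 0.119 to 0.486). COL6A1 and PLOD3 did not pass without tRNA-Ile-GAU replicate 1 (adjusted p of 0.0858 to 0.17). LAMA5, LAMB3 and PXDN did not pass without tRNA-Ile-GAU replicate 2 (adjusted p of 0.059 to 0.198).

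Among 18 tested targets of YAP, the coactivator that the Hippo pathway restrains and that acts through TEAD factors, 4 fell and none rose (ANKRD1, CYR61, CTGF and TGFB2), where 0.700% of all genes fell and 0.196% rose. The median of the 18 was -0.07. ANKRD1, a nuclear ankyrin repeat protein, had 575 and 1069 CPM with the eGFP guide and 473 and 499 CPM with the tRNA-Ile-GAU guide. Its 2 eGFP libraries differed by more than the groups did at their nearest point, and its log2 fold change of -0.80 ± 0.13 (adjusted p = 3.89e-06) had an adjusted p of 0.78 without eGFP replicate 2 and of 0.484 in DESeq2. CYR61 (CCN1), a secreted matricellular protein, had 1664 and 2124 CPM and then 1349 and 1278 CPM (-0.54 ± 0.11, adjusted p = 0.00073). CTGF (CCN2), of the same family, had 903 and 1177 CPM and then 707 and 724 CPM (-0.56 ± 0.11, adjusted p = 0.00109). Without eGFP replicate 2, the higher control library in all 4 of these genes, the adjusted p was 0.517 for CYR61 and 0.567 for CTGF. TGFB2, the growth factor, had 263 and 306 CPM and then 189 and 189 CPM (-0.61 ± 0.15, adjusted p = 0.0214). NT5E, the surface enzyme CD73 and the second most abundant of the targets, had 1649 and 1439 CPM and then 1261 and 1119 CPM without passing (-0.37 ± 0.11, adjusted p = 0.0687). TGFB2 did not pass with any 1 of the 4 libraries left out (adjusted p of 0.0552 to 0.567).

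The promoters of 3 of these targets are shown because they hold the letters GGAATG, or on the opposite strand of the gene CATTCC, the core of the site that TEAD factors are known to bind. They are the 250 bases before the transcription start in RefSeq's GRCh38.p14 annotation, written 5′ to 3′ along the gene, with the match in capitals: ANKRD1 at chr10:90921088-90921337, minus strand, with matches whose first bases lie 220 and 128 bases before the start; CTGF at chr6:131951373-131951622, minus strand, with matches 169, 104 and 95 bases before it; and TGFB2 at chr1:218345086-218345335, plus strand, with 1 match, on the opposite strand, 185 bases before it.
ANKRD1: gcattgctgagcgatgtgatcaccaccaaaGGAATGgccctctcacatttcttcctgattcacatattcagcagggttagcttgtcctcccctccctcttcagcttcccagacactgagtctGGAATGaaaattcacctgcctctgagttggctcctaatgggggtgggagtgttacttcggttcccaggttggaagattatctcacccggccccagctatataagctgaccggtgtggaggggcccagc
CTGF: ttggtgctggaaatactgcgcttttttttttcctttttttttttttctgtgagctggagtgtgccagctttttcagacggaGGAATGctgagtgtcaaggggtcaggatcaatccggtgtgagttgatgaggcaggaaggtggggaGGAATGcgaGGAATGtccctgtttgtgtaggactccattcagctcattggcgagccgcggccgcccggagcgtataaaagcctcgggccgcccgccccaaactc
TGFB2: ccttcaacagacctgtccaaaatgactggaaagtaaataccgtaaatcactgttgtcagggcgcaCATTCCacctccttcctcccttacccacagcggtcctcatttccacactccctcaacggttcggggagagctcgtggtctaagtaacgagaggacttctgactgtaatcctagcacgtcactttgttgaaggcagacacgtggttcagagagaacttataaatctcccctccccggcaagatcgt
Of the 13 YAP targets with a promoter of this length in the reference used, 4 held the letters (30.8%: these 3 and PTPN14). Among tested genes 617 of 6816 held them (9.05%), and among all promoters 3248 of 27305 (11.9%). CYR61 had no promoter in that reference, so it was not searched for the letters. Of the fallen genes 4 of 42 held them (9.52%; the fourth is ZC3HAV1) and of the risen genes 3 of 15 (20.0%; PPFIBP1, SSFA2 and TUBB6). A match of 6 letters is a description of the sequence and no measurement of binding. The YAP targets were listed as known targets of a TEAD coactivator, so their share says nothing about these footprints.

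The genes that rose were fewer, and CDH11 and PTK7 had the largest log2 fold changes among those named. CDH11, a cadherin typical of mesenchymal cells (chr16:64943753-65123744), had 22.9 and 20.96 CPM with the eGFP guide and 73.9 and 71.9 CPM with the tRNA-Ile-GAU guide, 3.33-fold higher (log2 fold change 1.74 ± 0.32, adjusted p = 0.000102). It was the 1 of 9 cadherin and catenin genes tested that passed. PTK7, a catalytically inactive receptor kinase that acts as a Wnt co-receptor in planar cell polarity (chr6:43076314-43161715), had 37.2 and 33.2 CPM and then 106 and 87.9 CPM, 2.76-fold higher (1.496 ± 0.27, adjusted p = 6.28e-05). In both genes the replicates of a group lay close together and far from the other group. PTK7 and ROR2 were the 2 of 18 tested genes of noncanonical Wnt signalling that passed, in opposite directions, and the median of that list was -0.08. Of all genes 0.896% passed. The lists were drawn up with earlier results of these data known, so nothing is read from such counts. CDH11 and PTK7 did not pass without eGFP replicate 2 (adjusted p = 0.0992 in both).

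ZNF10, a KRAB zinc finger repressor (chr12:133130627-133159465), had 243 and 217 CPM with the eGFP guide and 416 and 636 CPM with the tRNA-Ile-GAU guide, 2.29-fold higher (1.19 ± 0.15, adjusted p = 2.84e-10), and its knockdown libraries spread widely. The KRAB domain used in many CRISPRi repressors is taken from this gene, and gene-level counts do not separate reads of the native gene from reads of such a construct; the labels do not name the repressor, and the share of such reads was not tested. AKAP12, a scaffold for protein kinase A, had 25.7 and 34.9 CPM and then 67.4 and 73.5 CPM (1.15 ± 0.29, adjusted p = 0.0229). KIAA0430 (MARF1), a ribonuclease that acts on mRNA, had 22.9 and 19.2 CPM and then 53.5 and 54.3 CPM (1.38 ± 0.35, adjusted p = 0.0191). SSFA2 (ITPRID2) had 45.7 and 33.2 CPM and then 64.2 and 95.9 CPM (1.02 ± 0.28, adjusted p = 0.0357). MT2A, a metal-binding metallothionein with close copies in the genome, had 54.3 and 34.9 CPM and then 92.1 and 71.9 CPM (0.97 ± 0.27, adjusted p = 0.0476), and its value is uncertain for that reason. AKAP12, KIAA0430, SSFA2 and MT2A did not pass without eGFP replicate 1 (adjusted p of 0.0719 to 0.28). AKAP12, KIAA0430, SSFA2 and MT2A did not pass without eGFP replicate 2 (adjusted p of 0.233 to 0.733). KIAA0430 and MT2A did not pass without tRNA-Ile-GAU replicate 1 (adjusted p of 0.0664 to 0.414). AKAP12 and SSFA2 did not pass without tRNA-Ile-GAU replicate 2 (adjusted p of 0.0688 to 0.339).

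Cytoskeletal and adhesion genes among the risen were TUBB6, a beta tubulin, with 123 and 126 CPM and then 236 and 229 CPM (0.90 ± 0.17, adjusted p = 0.000424), LPXN (leupaxin, of focal adhesions; 0.84 ± 0.24, adjusted p = 0.0494) and PPFIBP1 (a liprin; 0.69 ± 0.18, adjusted p = 0.0292). TUBB6 had tight replicates in both groups, while the LPXN knockdown libraries were 131 and 79.9 CPM against 57.2 and 62.9 CPM in the controls. LPXN did not pass under RLE scaling (adjusted p = 0.0507). The translation-related genes that rose were EIF3K, a small subunit of initiation factor eIF3, from 172 and 262 CPM to 352 and 310.0 CPM (0.57 ± 0.15, adjusted p = 0.0293), and TARS, the cytosolic threonyl-tRNA synthetase, from 577 and 634 CPM to 794 and 841 CPM (0.42 ± 0.12, adjusted p = 0.0487). CCT4, a subunit of the chaperonin that folds actin and tubulin, rose from 895 and 832 CPM to 1157 and 1136 CPM (0.42 ± 0.11, adjusted p = 0.034). CTSC, a lysosomal dipeptidyl peptidase, and MDH1, the cytosolic malate dehydrogenase, completed the set at 0.50 ± 0.13 (adjusted p = 0.0214) and 0.46 ± 0.13 (adjusted p = 0.0487). EIF3K, CCT4, TARS, MDH1, PPFIBP1, LPXN, SSFA2, MT2A and LAMB3 lost their call when chromosome 7 genes were left out of the fit, with adjusted p of 0.0557 to 0.0898. LPXN, PPFIBP1, EIF3K, TARS, CCT4, CTSC and MDH1 did not pass without eGFP replicate 1 (adjusted p of 0.159 to 0.625). TUBB6, LPXN, PPFIBP1, TARS, CCT4, CTSC and MDH1 did not pass without eGFP replicate 2 (adjusted p of 0.0992 to 0.521). LPXN, PPFIBP1, EIF3K, CCT4, CTSC and MDH1 did not pass without tRNA-Ile-GAU replicate 1 (adjusted p of 0.0528 to 0.735). PPFIBP1, TARS and MDH1 did not pass without tRNA-Ile-GAU replicate 2 (adjusted p of 0.0937 to 0.151).

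Chromosome 7 held 27 of the 57 fallen genes and none of the risen ones. Of its 371 tested genes (4.57% of the tested genes with a position), 328 lay lower with the tRNA-Ile-GAU guide and 27 fell (7.28%), with a median log2 fold change of -0.39. The medians of the other chromosomes ran from -0.05 (chromosome 19) to 0.08 (chromosome 13). The shift was as large in footprints with the control construct, measured in other libraries (-0.39), and was present in total RNA of the same lines (-0.33, with 472 of 553 genes lower). Among the fallen genes described here, LAMB1, CLDN4, MCM7, FZD1, GSTK1, POP7, IGFBP1, SEMA3C, MET, PLOD3 and ZC3HAV1 lie on it. So do PON2, PPIA, CAV1, ESYT2, CALU, PODXL, SND1, SUMF2 and TES. Off chromosome 7, 16 genes rose and 30 fell of 7747 (0.387% fallen), S100A4, ITGB4, ROR2, GPRC5C and the 4 YAP targets among them. Fitted without chromosome 7 genes, 34 genes passed, 7 higher and 27 lower. Guide and line coincide in this design, so what belongs to the line and what to the guide cannot be told apart.

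**Figure D3:**
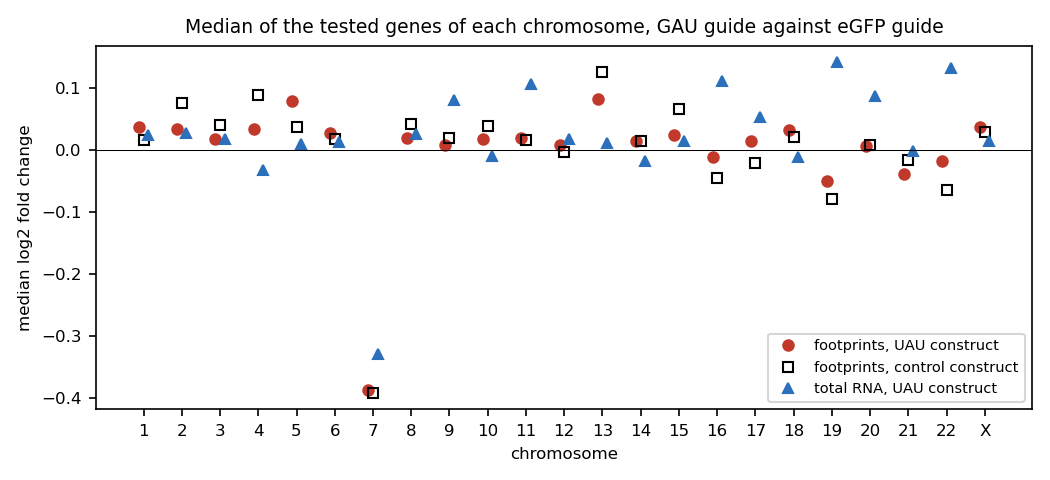
Median log2 fold change, tRNA-Ile-GAU guide against eGFP guide, over the tested genes of each chromosome, in footprints with the tRNA-Ile-UAU construct (circles), footprints with the control construct (squares) and total RNA with the tRNA-Ile-UAU construct (triangles). Chromosome 7 lies at -0.39, -0.39 and -0.33, and every other footprint median with the tRNA-Ile-UAU construct lies between -0.05 and 0.08.

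The chromosome 7 genes that fell belong to several pathways. MET, the receptor of hepatocyte growth factor, had 417 and 444 CPM and then 291 and 254 CPM (-0.65 ± 0.14, adjusted p = 0.00138), and SEMA3C, a secreted guidance factor, 277 and 264 CPM and then 149 and 145 CPM (-0.87 ± 0.16, adjusted p = 0.00017). GSTK1, a glutathione transferase, had 91.5 and 96.1 CPM and then 46.03 and 39.95 CPM (-1.11 ± 0.24, adjusted p = 0.00323). These 3 genes had replicates close to each other in both groups. POP7, a subunit of the RNase P and RNase MRP complexes that process tRNA and rRNA precursors, had 77.2 and 50.7 CPM and then 35.3 and 19.2 CPM (-1.08 ± 0.30, adjusted p = 0.0494). POP7 is among the least abundant genes called, and its replicates spread widely. IGFBP1, a binding protein of insulin-like growth factors, had 71.5 and 87.3 CPM and then 40.7 and 39.95 CPM (-1.002 ± 0.26, adjusted p = 0.0235). The largest log2 fold change of any called gene was that of PON2, a paraoxonase, from 34.3 and 20.96 CPM to 5.35 and 1.598 CPM (-2.71 ± 0.62, adjusted p = 0.00551); its level lies below the 20 CPM of the naming rule, and it was picked after its values were seen. Its log2 fold change was -3.88 without tRNA-Ile-GAU replicate 1 and -2.25 without replicate 2. CAV1 (caveolin 1), ESYT2, CALU, PODXL, SND1, SUMF2 and TES had log2 fold changes between -0.42 (CAV1) and -0.81 (SUMF2). PPIA, cyclophilin A, also fell (-0.67 ± 0.15), with many near-identical copies elsewhere in the genome, so its value is uncertain. POP7, IGFBP1, PON2, CAV1, CALU, SND1, SUMF2 and PPIA did not pass without eGFP replicate 1 (adjusted p of 0.0512 to 0.527). MET, GSTK1, POP7, IGFBP1, CAV1, ESYT2, PODXL, SND1, SUMF2 and TES did not pass without eGFP replicate 2 (adjusted p of 0.0558 to 0.564). IGFBP1, SND1 and TES did not pass without tRNA-Ile-GAU replicate 1 (adjusted p of 0.0834 to 0.188). POP7, IGFBP1, PON2, CAV1 and PPIA did not pass without tRNA-Ile-GAU replicate 2 (adjusted p of 0.0589 to 0.333).

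Other genes off chromosome 7 also fell, of which CTSD, BMP4, CD9 and BSG were picked after their values were seen. CTSD, the lysosomal protease cathepsin D and the most abundant gene called, had 5010.5 and 4853 CPM and then 3819 and 3276 CPM (-0.47 ± 0.10, adjusted p = 0.00109). BMP4, a growth factor of the TGF-beta family, had 266 and 252 CPM and then 155 and 139 CPM (-0.80 ± 0.16, adjusted p = 0.00109), and the tetraspanin CD9 923 and 985 CPM and then 718 and 650.4 CPM (-0.48 ± 0.11, adjusted p = 0.00988). In all 3 the groups lay apart. EEF1A2, the second gene for elongation factor eEF1A, had 157 and 126 CPM and then 58.9 and 79.9 CPM (-1.03 ± 0.21, adjusted p = 0.00109); it resembles EEF1A1 closely, so reads can be lost to either, and EEF1A1 itself did not pass (0.59). BSG (basigin), at -0.37, was the smallest change among the fallen genes. CTSD, CD9, BSG and EEF1A2 did not pass without eGFP replicate 1 (adjusted p of 0.0681 to 0.666). CTSD, BMP4, CD9 and BSG did not pass without eGFP replicate 2 (adjusted p of 0.0584 to 0.357). EEF1A2 did not pass without tRNA-Ile-GAU replicate 1 (adjusted p = 0.124). CD9 and BSG did not pass without tRNA-Ile-GAU replicate 2 (adjusted p of 0.0796 to 0.198).

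In the lists of the translation machinery few genes were called; EIF3K, EEF1A2 and POP7, called and described above, are not members of these lists. None of the 38 large subunit and 26 small subunit ribosomal protein genes tested passed, and their medians were 0.05 and 0.06. None of 33 translation factors (median 0.07) or 27 genes of tRNA modification and transcription (0.11) passed, and of 24 aminoacyl-tRNA synthetases TARS alone did (0.08). At an unadjusted p under 0.05, 5 of 38 large subunit, 4 of 26 small subunit, 7 of 33 factor, 1 of 27 tRNA modification and transcription and 4 of 24 synthetase genes stood in either direction, where 9.86% of all genes did. The isoleucyl-tRNA synthetases did not pass: cytosolic IARS had 554 and 585 CPM and then 656 and 580.1 CPM (0.12 ± 0.12, adjusted p = 0.833), and mitochondrial IARS2 206 and 224 CPM and then 206 and 182 CPM (-0.15 ± 0.16, adjusted p = 0.851). EEF2, the most abundant factor, differed by 0.03 ± 0.10. Ribosomal protein genes have many processed copies, and a read that fits several places was not counted, which makes their levels uncertain.

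Stress and proteostasis lists were also nearly without calls. The integrated stress response, which uncharged tRNA can switch on through GCN2, had the highest list median at 0.29, with 11 of 14 genes higher and none past the test; at an unadjusted p under 0.05, 3 were higher and 1 lower, where 4.18% and 5.69% of all genes were. PSAT1, of serine synthesis, had 209 and 148 CPM and then 223 and 249 CPM (0.44 ± 0.16, adjusted p = 0.26), with a wide spread in the controls, and ASNS, asparagine synthetase, differed by 0.21 ± 0.18. With the control construct, the median of the same 14 genes was 0.01. None of 20 unfolded protein response genes (median -0.03) or 30 proteasome genes (0.13) passed. Of 22 chaperone genes, CCT4 rose and BAG3, a co-chaperone of HSP70, fell from 420.2 and 423 CPM to 289 and 305 CPM (-0.51 ± 0.13, adjusted p = 0.0308). CCT4 and BAG3 did not pass without eGFP replicate 1 (adjusted p of 0.159 to 0.194). CCT4 and BAG3 did not pass without eGFP replicate 2 (adjusted p of 0.385 to 0.521). CCT4 and BAG3 did not pass without tRNA-Ile-GAU replicate 1 (adjusted p of 0.0858 to 0.191).

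In lipid metabolism, FASN, the fatty acid synthase, fell from 2072 and 2037 CPM to 1558 and 1563 CPM (-0.40 ± 0.10, adjusted p = 0.026), the 1 of 13 fatty acid genes to pass (median -0.11). SCD, the stearoyl-CoA desaturase, was lower without passing (-0.32 ± 0.11, adjusted p = 0.203). MCM7, a subunit of the replicative helicase that lies on chromosome 7, fell from 715 and 873 CPM to 528 and 588 CPM (-0.53 ± 0.12, adjusted p = 0.004), while MCM3 differed by 0.03 ± 0.12, and no other of 28 replication genes passed. No gene passed among 24 mitosis, 19 histone, 30 splicing, 20 glycolysis, 33 oxidative phosphorylation, 31 mitochondrial ribosome, 12 amino acid transporter, 28 interferon, 9 NF-kB, 14 immediate early and 11 p53 target genes. Their medians ran from -0.17 (histones) to 0.09 (splicing). In all, 11 of 29 lists held a called gene, and 20 of the 73 called genes were in a list. The share of all tested genes in a list is not given here. The lists were also drawn up with earlier results of these data known, so nothing is read from these 2 counts. FASN did not pass without eGFP replicate 1 (adjusted p = 0.245). FASN and MCM7 did not pass without eGFP replicate 2 (adjusted p of 0.278 to 0.544). FASN and MCM7 did not pass without tRNA-Ile-GAU replicate 1 (adjusted p of 0.0539 to 0.0804).

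**Figure D4:**
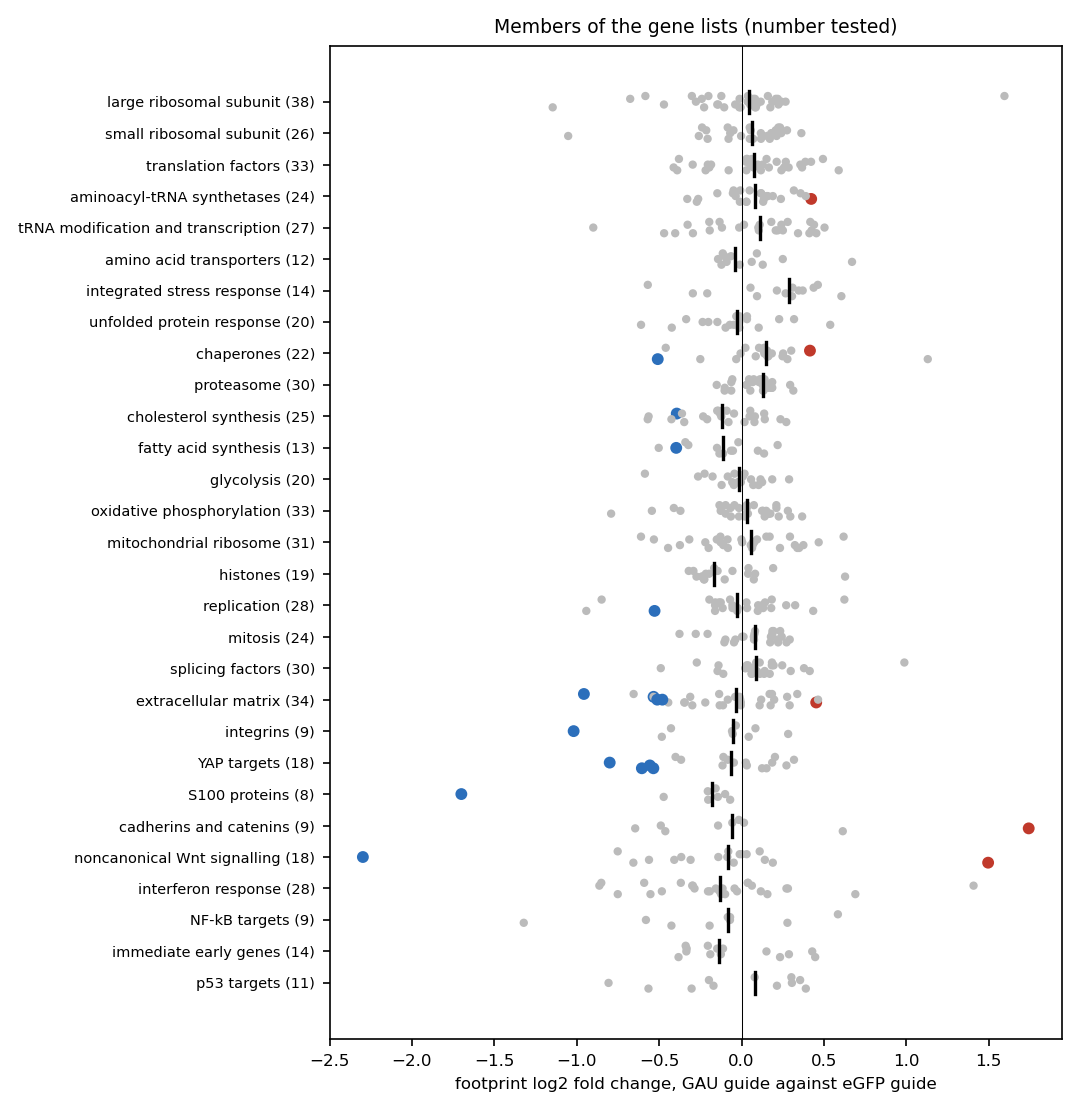
Footprint log2 fold change of each tested member of the 29 gene lists, tRNA-Ile-GAU guide against eGFP guide, with the number tested in brackets; blue and red points fell or rose, grey points did not pass, and the black bar is the list's median. Medians lie between -0.18 (S100 proteins) and 0.29 (integrated stress response), and the matrix and YAP target lists hold 5 and 4 called points.

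The same knockdown was also measured in cells with the control construct, in 4 libraries that the comparison above does not share. There, 37 genes rose (0.454%) and 53 fell (0.651%; 1.11% in all), and the 2 sets of calls overlapped without being the same. Of the 16 risen genes 6 also rose there (37.5% of the 16 and 16.2% of the 37): CDH11, CTSC, LAMB3, PTK7, TARS and ZNF10. Of the 57 fallen genes 18 also fell there (31.6% of the 57 and 34.0% of the 53), 12 of them on chromosome 7; the other 6 were S100A4, ITGB4, GPRC5C, LAMA5, CYR61 and CTGF. No gene was called in opposite directions. Counting direction alone, 14 of 16 risen and 54 of 57 fallen genes had the same sign (87.5% and 94.7%, where 50.2% of all genes were higher and 49.8% lower). On chromosome 7, all 27 fallen genes were lower there too, as were 87.9% of all its genes, and off it 27 of 30 were (90.0%, against 47.9%). Across the 8143 genes the 2 sets of log2 fold changes correlated with Pearson's r of 0.25 and Spearman's rho of 0.23, and off chromosome 7 with 0.19 and 0.19. Genes are not independent replicates, and low counts weaken such a correlation.

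S100A4 had 807 and 834 CPM with the eGFP guide and 375 and 312 CPM with the tRNA-Ile-GAU guide when the construct was the control (log2 fold change -1.26 ± 0.12). GPRC5C had 97.7 and 100.0 CPM and then 36.1 and 31.8 CPM (-1.53 ± 0.24), and ITGB4 643 and 636 CPM and then 411 and 312 CPM (-0.82 ± 0.12). All 3 genes fell with both constructs. The log2 fold change with the tRNA-Ile-UAU construct minus that with the control construct was -0.44 ± 0.18, 0.02 ± 0.37 and -0.20 ± 0.17. None of these differences passed the interaction test (edgeR, adjusted p = 0.665, 0.998 and 0.994). For S100A4 the unadjusted p of that test was 0.0127. TUBB6 had 139.8 and 154 CPM and then 177 and 219 CPM with the control construct (0.43 ± 0.16, adjusted p = 0.263), and CDH11 20.2 and 20.3 CPM and then 106 and 86.9 CPM (2.24 ± 0.28, adjusted p = 3.23e-10). A call in 1 setting and not in the other does not show that the effects differ; the test of the difference is the interaction.

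In the interaction test, the knockdown effect differed between the constructs in 5 of 8143 genes (0.0614%), in each of them lower with the tRNA-Ile-UAU construct; 475 had an unadjusted p under 0.05 (5.83%). ROR2 was the 1 gene among them that is also one of the 73. With the control construct its footprints were 67.4 and 42.4 CPM with the eGFP guide and 37.3 and 97.9 CPM with the tRNA-Ile-GAU guide, overlapping and widely spread (0.30 ± 0.25), against the fall of -2.30 given above, a difference of -2.59 ± 0.45 (adjusted p = 0.000356). The other 4 genes rose with the control construct and did not pass with the tRNA-Ile-UAU construct. TGM2, a transglutaminase that crosslinks proteins, had 463 and 482 CPM and then 814 and 738 CPM with the control construct, but 606 and 606 CPM and 581 and 629.6 CPM with the tRNA-Ile-UAU construct (difference -0.72 ± 0.17, adjusted p = 0.0447). PDGFC, a platelet-derived growth factor, had 43.8 and 49.2 CPM and then 116 and 81.99 CPM, but 80.03 and 85.6 CPM and 68.5 and 60.7 CPM (difference -1.44 ± 0.33, adjusted p = 0.0447). In both genes the knockdown libraries lay above the controls with 1 construct and level with or below them with the other. CD55, which protects cells from complement, had 350.2 and 354 CPM and then 589 and 464 CPM, but 389 and 498 CPM and 376 and 361 CPM (difference -0.87 ± 0.18, adjusted p = 0.0132). LSM4, of the Sm-like ring on U6 snRNA, had 2393 and 2939 CPM and then 3345 and 4222 CPM, but 3309.9 and 3629.9 CPM and 2108 and 3573 CPM (difference -0.80 ± 0.15, adjusted p = 0.0023), and its 2 knockdown libraries with the tRNA-Ile-UAU construct lay far apart.

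In TGM2, PDGFC, CD55 and LSM4 both eGFP libraries with the tRNA-Ile-UAU construct lay above both with the control construct. The interaction calls depended on the setting: 0 remained in DESeq2 (where the adjusted p of each was 0.9995), 2 with libraries thinned to the depth of the shallowest, 0 without eGFP replicate 2 and 9 genes passed without tRNA-Ile-GAU replicate 2. Of the 73 called genes, 22 had an unadjusted interaction p under 0.05, where 5.83% of all genes did. The interaction shares its footprint values with the choice of those genes, so nothing is read from that count. TGFB2 came nearest after ROR2: its footprints were 221 and 207 CPM and then 288 and 224 CPM with the control construct (0.26 ± 0.15), and the difference was -0.87 ± 0.21 (adjusted p = 0.067). FASN, with 2287 and 2650.4 CPM and then 2580.0 and 2476 CPM (0.03 ± 0.10), had a difference of -0.43 ± 0.14 (adjusted p = 0.665), and KIAA0430 a difference of 1.25 ± 0.46 (adjusted p = 0.665). None of these 3 passed.

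**Figure D5:**
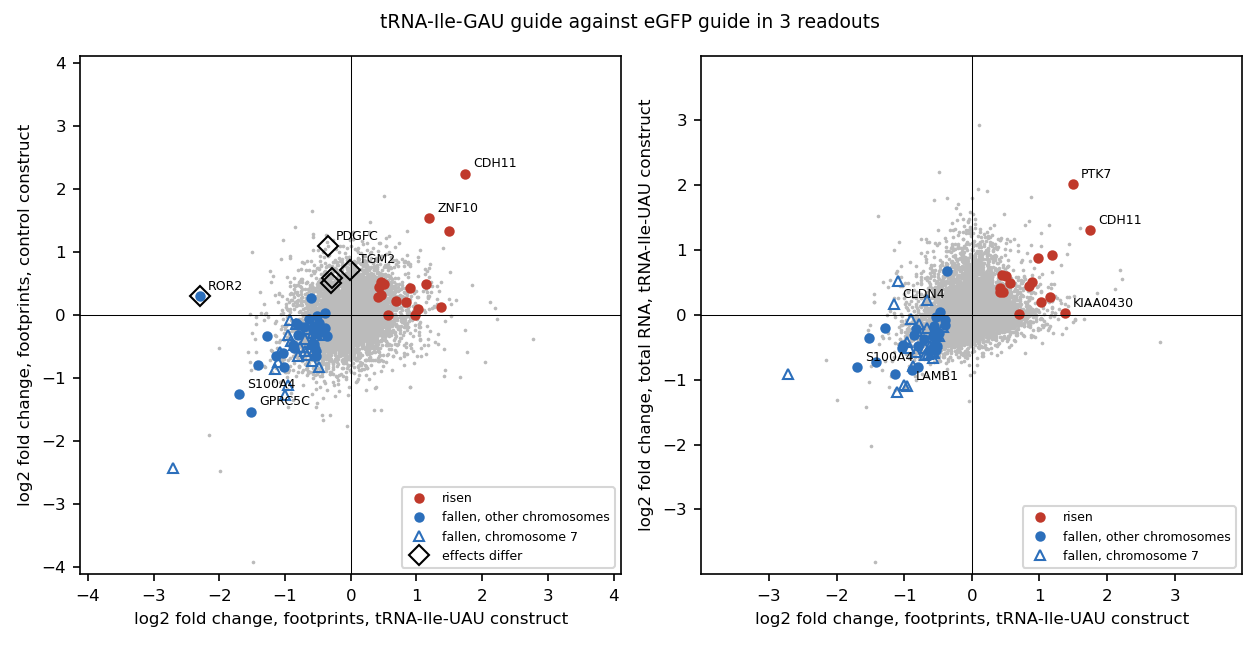
Log2 fold change of footprints with the tRNA-Ile-UAU construct (x axis) against that of footprints with the control construct (left) and of total RNA with the tRNA-Ile-UAU construct (right), tRNA-Ile-GAU guide against eGFP guide; grey points are genes that did not pass on the x axis, and diamonds are the 5 genes whose 2 effects differ. CDH11, ZNF10, S100A4 and GPRC5C lie near the diagonal on the left and ROR2 far off it. On the right KIAA0430 (0.03 ± 0.12) and CLDN4 (0.16 ± 0.47) lie near 0 in total RNA, CLDN4 with a wide error.

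Total RNA from the same lines gave few calls but mostly the same directions. Of 11720 genes tested, 8 passed (0.0683%), 1 higher (0.00853%) and 7 lower (0.0597%), and 948 had an unadjusted p under 0.05 (8.09%). All 16 risen genes were higher in total RNA too (55.8% of the 8012 genes tested in both assays were), 10 of them at an unadjusted p under 0.05, where 3.38% of all genes were higher at that p. Of the 56 fallen genes that could be tested, 51 were lower (91.1%, against 44.2% of the genes tested in both), 26 at an unadjusted p under 0.05, where 4.71% of all genes were. On chromosome 7 these were 24 of 27 genes (88.9%, against 87.5% of all its genes), 17 at that p (46.6% of its genes were lower at it). Off chromosome 7 they were 27 of 29 (93.1%, against 42.2%), 9 at that p (3.10%). The median log2 fold change in total RNA was 0.46 for the risen and -0.42 for the fallen genes. CDH11 rose in total RNA from 27.3 and 27.3 CPM to 63.97 and 71.1 CPM (1.30 ± 0.14, adjusted p = 0.0314). LAMB1 fell from 421 and 384 CPM to 191 and 184 CPM (-1.10 ± 0.11, adjusted p = 0.0244), and SEMA3C from 354 and 341 CPM to 191 and 209.6 CPM (-0.79 ± 0.10, adjusted p = 0.0337). The other named calls were SLC35B4 (-0.94 ± 0.11) and UBE2H (-0.74 ± 0.10) on chromosome 7, and HTR1F, a serotonin receptor gene on chromosome 3, with 31 and 36 counts in the eGFP libraries and 1 and 2 in the knockdown libraries. Without either eGFP total RNA library no gene passed, and without tRNA-Ile-GAU replicate 1 or 2, the counts were 180 and 2090.

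Some named genes differed more in footprints than in total RNA. S100A4 had 93.00 and 172 CPM in total RNA with the eGFP guide and 117 and 32.8 CPM with the tRNA-Ile-GAU guide, with overlapping groups (-0.81 ± 0.46, adjusted p = 0.693). The 117 CPM came from replicate 1, a library that stood apart, as described below. With the control construct, S100A4 had 168 and 149 CPM in total RNA and then 79.1 and 57.5 CPM, without overlap (-1.22 ± 0.48, adjusted p = 0.648, edgeR). With the tRNA-Ile-UAU construct, CLDN4 had 3.56 and 9.80 CPM and then 9.44 and 5.95 CPM (0.16 ± 0.47). KIAA0430 had 125 and 115 CPM and then 112 and 133 CPM (0.03 ± 0.12). Both had overlapping groups. The 9.44 CPM of CLDN4 also came from replicate 1, and its standard error is large. With the control construct, CLDN4 had 10.7 and 7.68 CPM in total RNA and then 6.99 and 3.75 CPM. Those groups did not overlap (-0.81 ± 0.51, adjusted p = 0.873, edgeR). PTK7 differed more in total RNA with the tRNA-Ile-UAU construct, from 9.498 and 10.3 CPM to 51.9 and 27.9 CPM (2.01 ± 0.32, adjusted p = 0.097). Translational efficiency, tested as the footprint contrast minus the total RNA contrast, changed in 0 of 8012 genes by edgeR, with 337 genes (4.21%) at an unadjusted p under 0.05; no other tool was run on it. By direction alone, 13 of 16 risen genes had a higher and 49 of 56 fallen genes a lower efficiency, in a measure that shares its footprint values with the choice of those genes, so nothing is read from that.

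The total RNA libraries varied more than the footprints, with a biological coefficient of variation of 14.3% against 6.71%. The knockdown library of replicate 1 stood apart: the 64 ribosomal protein genes had a median of 0.88 against the mean of the 4 libraries on the log2 scale, where the other 3 lay at -0.49, -0.09 and -0.29. In the 4 footprint libraries the same genes lay between -0.05 and 0.03. The median total RNA difference was 0.64 for large subunit and 0.92 for small subunit genes, while their footprints were near 0, and with those values efficiency of these genes cannot be read. How far that library moves the other efficiency values was not tested, other than by leaving it out, after which again 0 genes passed; without tRNA-Ile-GAU total RNA replicate 2, which leaves the library that stood apart, 600 did (74 higher and 526 lower).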

How the data were processed

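Footprints and total RNA were measured in 8 libraries each, 2 per group. The authors deposited raw read counts per gene symbol, made with cutadapt 1.17, STAR 2.5.2a, HTSeq (version not given in the sources used here) and build hg38, per the submitters' processing notes; the settings are not given in the sources used here. Multiply aligned reads were 97.0 to 98.8% of HTSeq's total in the 4 footprint libraries compared, and reads on genes 0.843 to 2.25%, which limits genes with close copies and the depth. A gene missing from a footprint file was given a count of 0.

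Samples were grouped by guide target and construct from their titles. The members and the gene lists were chosen with earlier results of these data known. The low-count filter was filterByExpr (a count of 10, a total of 15; 8143 of 13804 in footprints), libraries were scaled by TMM, and edgeR 4.0.16 in R 4.3.3 fitted group means to all 8 libraries of an assay (all 16 for translational efficiency) with the quasi-likelihood test and Benjamini-Hochberg adjustment and a threshold of 0.05. Values after ± are standard errors, and CPM values use TMM-scaled library sizes. Named genes were the 14 risen and 14 fallen with the largest change among those passing without overlap at a mean of at least 20 CPM, up to 5 per direction in the other tests, list members that passed, the most abundant list members, and IARS and IARS2; others are described after their values were seen. The alternatives were other scaling, filters, DESeq2 1.42.0, thinning, the replicate block, chromosome 7 left out and each library left out. In simulated counts, the footprint test recovered 22 of 96 genes changed 1.5-fold and 54 of 97 changed 2-fold, with 2 of the other genes called. Symbols were matched to RefSeq tables of GRCh38.p14, with a position for 8118 tested genes. Isoleucine codon content was not analysed here. Values of some genes that the rule names are not reported here.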

Additional observations from a re-analysis of the deposited data

Results flagged for a closer look

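In 5 genes the knockdown effect on footprints differed between cells with the tRNA-Ile-UAU construct and cells with the control construct, by the interaction term of edgeR's quasi-likelihood test over all genes. The difference of the log2 fold changes was -2.59 for ROR2 (adjusted p = 0.000356), which fell with the tRNA-Ile-UAU construct and did not pass with the control construct (log2 fold change 0.30). It was -0.80 for LSM4 (adjusted p = 0.0023), whose 2 knockdown libraries with that construct were 2108 and 3573 CPM, and whose difference was -0.47 (adjusted p = 0.219) without the lower of them. It was -0.87 for CD55 (adjusted p = 0.0132), -1.44 for PDGFC (adjusted p = 0.0447) and -0.72 for TGM2 (adjusted p = 0.0447), and these 3 genes, like LSM4, rose with the control construct. ROR2 had 0 counts in all 8 total RNA libraries, and whether its footprint reads come from its mRNA was not tested. Each difference kept its sign in every alternative run on it, and none passed in DESeq2 or without eGFP replicate 2.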

How the results depend on the processing

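With the tRNA-Ile-UAU construct, the 73 footprint calls were 72 under RLE scaling, 77 with library totals, 63 without a filter, 106 with a minimum count of 30 and 49 after thinning. They were 26 in DESeq2 (2 higher, 24 lower; 5368 genes got no adjusted p), 34 without chromosome 7 genes, 45 with the 4 libraries alone and 19 to 74 with a library left out. The 5 interaction calls were 0 in DESeq2, 2 after thinning and 0 to 9 with a library left out. The 8 total RNA calls were 5 under RLE scaling, 391 without a filter, 55 in DESeq2 and 0 to 2090 with a library left out, and the 0 efficiency calls were 0 to 600. The cause of these moves was not tested. Where a group is left with 1 library, that library is assumed to vary like the other groups. No result changed sign.

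The labels do not pair replicate numbers, and deviations of same-numbered footprint libraries correlated at -0.04 to 0.06 (total RNA: -0.42 to 0.36). With the replicate block, 106 footprint genes passed (25 higher, 81 lower), 8 in the interaction, 0 in total RNA and 0 in efficiency. Depth and replicate number limit what can be detected, and recovery was not split by level. In the simulation, 54 of 97 changes of 2-fold were recovered in footprints and 31 of 100 in efficiency.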
